A study of Mus musculus with 6 samples.

Results

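The amino acid transporter genes described here are the mouse genes of the solute carrier families Slc1, Slc3, Slc6, Slc7, Slc36, Slc38 and Slc43 in the kidney of newborn mice. They were selected by gene symbol, leaving out the taurine and betaine carrier genes Slc6a6 and Slc6a12. The symbol rule uses no measured value, but it was proposed with earlier results of these data known. The rule found 58 genes among the 19659 genes with a value, with 7 in Slc1, 2 in Slc3, 16 in Slc6, 15 in Slc7, 4 in Slc36, 11 in Slc38 and 3 in Slc43. Whole kidneys were taken at postnatal day 3 and flash frozen, and total RNA was sequenced from 3 libraries of R26NICD2/+Kspcre mice (called NICD2 below) and 3 libraries of wild type mice (WT). R26NICD2 is an allele at the Rosa26 locus that gives the intracellular, active part of the receptor NOTCH2 where Cre recombinase is present. Kspcre carries Cre under the promoter of the kidney-specific cadherin gene, which is active in tubule epithelium, so not every cell of the kidney carries the active receptor. The labels do not say whether the WT mice carried the Cre or the unrecombined allele, nor whether each library came from 1 animal, so p-values measure the spread between these libraries only. In whole tissue, fewer cells of a type and less RNA per cell cannot be told apart.

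Amino acids filtered by the glomerulus are taken back almost completely by the proximal tubule. Carriers in the brush border bring them into the cell with sodium, protons or by exchange, and carriers in the basolateral membrane pass them to the blood. Several Slc7 proteins are light chains that reach the membrane only when bound to a heavy chain of the Slc3 family, while Slc38 and Slc1 proteins work alone and also feed growing cells with small neutral amino acids and glutamine. Many of these genes are also known targets of the transcription factor ATF4 when amino acids are short.

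Some facts about the libraries bear on the values. Summed FPKM (fragments normalised to transcript length and library depth) of 5 adrenal cortex genes was 1.99, 144.23 and 147.26 in NICD2 replicates 1, 2 and 3, and 145.43, 142.97 and 4.28 in WT replicates 1, 2 and 3. One library of each genotype therefore held almost none of the adrenal RNA that the other 4 held. NICD2 replicate 3 had 0 FPKM of 4 Y-linked genes, which summed to between 62.4 and 77.1 FPKM in the other 5 libraries. The transgene row of human NOTCH2 stood at 75.44, 79.59 and 60.17 FPKM in NICD2 libraries, against 0.00, 0.03 and 0.03 FPKM in WT libraries. Estimated depth was 15750000 to 17250000 fragments per library.

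All 58 genes had a fragment in at least 1 library. A level of at least 1 FPKM in at least 3 libraries was reached by 38 of them, which were tested with limma among 13765 genes, and 20 genes stayed under that filter. In NICD2 kidneys 4 transporter genes were higher and 5 were lower than in WT kidneys at a Benjamini-Hochberg adjusted p under 0.05 (limma, two-sided), and 29 did not pass. That is 23.7% of the tested transporter genes, beside 8.79% of all tested genes, of which 4.93% were higher and 3.86% were lower. The median difference over the 38 genes was -0.09 on the log2(FPKM + 1) scale, beside -0.006 over all tested genes, with 13 genes above 0 and 25 below. The groups did not overlap for 17 of the 38 genes, or 44.7%, beside 30.5% of all tested genes. Summed over the 58 genes, transporter RNA was 674.5, 663.8 and 692.3 FPKM in NICD2 libraries and 666.0, 708.4 and 666.7 FPKM in WT libraries, so the groups overlapped in the total.

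The 4 genes that rose encode carriers of small neutral and of cationic amino acids: Slc38a4 and Slc38a2, Slc1a4 and Slc7a2. The 5 that fell are Slc7a7, Slc7a8 and Slc43a2, whose proteins pass amino acids across the basolateral membrane of epithelia, Slc6a8, the creatine carrier, and Slc6a17, a carrier of neuronal vesicles. The sequences just upstream of the starts of 3 of the genes that rose and of 1 that fell are shown first, because these levels lead the results. They come from the RefSeq promoter table of build GRCm38.p6, are written 5′ to 3′ on the strand of the gene, all 4 of which lie on the minus strand, and end at the transcription start. The sequence of Slc1a4 runs 4 bases past it to complete a motif. Capitals mark TGGGAA, the core of the site bound by RBPJ, the DNA-binding partner of NOTCH, and TGATGNAA, a core of the composite C/EBP and ATF site, each on either strand.

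Slc38a4 (chr15:97055957-97056206): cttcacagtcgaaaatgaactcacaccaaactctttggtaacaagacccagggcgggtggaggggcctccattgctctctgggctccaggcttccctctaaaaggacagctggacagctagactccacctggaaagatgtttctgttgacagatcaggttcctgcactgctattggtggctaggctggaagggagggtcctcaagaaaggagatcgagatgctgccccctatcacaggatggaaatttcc
Slc38a2 (chr15:96699729-96699978): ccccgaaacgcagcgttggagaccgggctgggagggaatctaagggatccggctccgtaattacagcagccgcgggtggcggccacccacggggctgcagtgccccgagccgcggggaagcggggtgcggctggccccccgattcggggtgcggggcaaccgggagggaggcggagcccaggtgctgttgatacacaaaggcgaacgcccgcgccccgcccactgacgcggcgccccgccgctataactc
Slc1a4 (chr11:20332710-20332963): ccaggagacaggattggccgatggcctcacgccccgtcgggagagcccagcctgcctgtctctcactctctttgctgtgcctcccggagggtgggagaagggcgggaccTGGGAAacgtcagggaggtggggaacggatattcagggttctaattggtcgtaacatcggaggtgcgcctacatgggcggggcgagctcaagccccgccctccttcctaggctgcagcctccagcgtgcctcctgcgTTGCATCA
Slc7a7 (chr14:54417703-54417952): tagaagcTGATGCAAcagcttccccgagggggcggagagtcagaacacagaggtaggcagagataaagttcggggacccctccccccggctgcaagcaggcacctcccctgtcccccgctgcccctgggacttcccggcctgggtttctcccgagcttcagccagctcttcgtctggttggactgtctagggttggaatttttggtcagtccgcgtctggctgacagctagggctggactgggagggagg

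Slc1a4 holds both cores, TGGGAA from base -141 on the strand of the gene and TGATGNAA from base -4 on the opposite strand, while the printed stretches of Slc38a4 and Slc38a2 hold neither. Slc38a4 has a TGGGAA from base 7 of the transcript, outside the printed stretch. Slc7a7 holds TGATGNAA from base -243, counted from the start shown. The table has windows of 300 bases (250 before and 50 after a start) for 41 of the 58 genes, some with several starts. TGGGAA is present in 13 of their 58 windows, from 12 genes, and in 25.6% of all 32851 windows of the table. Those genes include Slc6a17 and, at a start other than the one shown, Slc7a7, both of which fell. TGATGNAA is present in 4 windows of the 58, from Slc1a4, Slc7a7 and the cystine carrier gene Slc7a11, and in 3.97% of all windows. Slc7a7 is counted with overlapping windows that share a site. The 2 motifs do not overlap each other in the printed sequences, and a match here describes letters only.

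**Figure D1:**
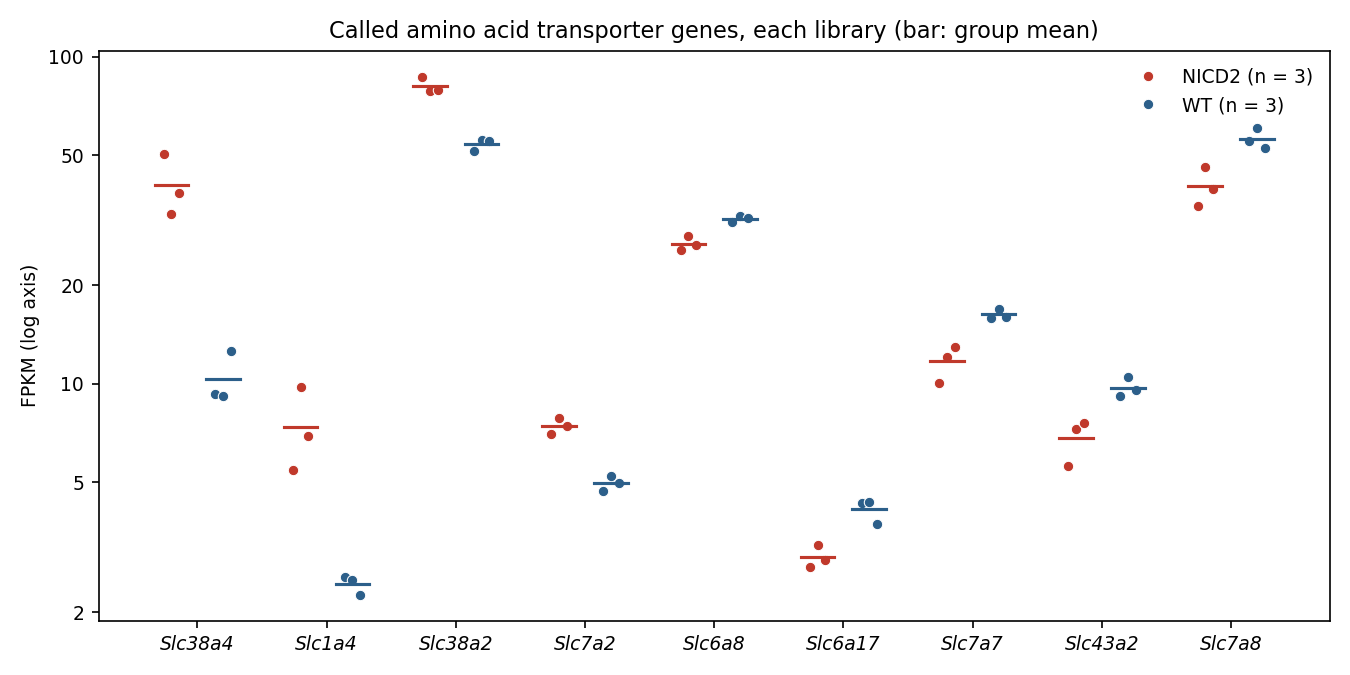
FPKM on a log axis for the 9 transporter genes past the threshold, with NICD2 libraries (red, n = 3) left of WT libraries (blue, n = 3), 1 point per library and a bar at the group mean, genes ordered by their log2 difference. The groups do not overlap for any of the 9 genes, and Slc38a4 and Slc1a4 stand apart from the rest by the size of the gap, with ratios of mean FPKM of 3.93 and 3.02.

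The largest difference was that of Slc38a4, which encodes SNAT4, a sodium-coupled System A carrier of small neutral amino acids known mainly from liver and placenta, and an imprinted gene in the mouse. Slc38a4 had 50.53, 33.08 and 38.34 FPKM in NICD2 libraries, against 9.28, 9.18 and 12.61 FPKM in WT libraries. Every NICD2 library was well above every WT library. Mean FPKM of Slc38a4 was 3.93 times that of WT, and the difference on the log2(FPKM + 1) scale was 1.87 ± 0.16 (SE; limma adjusted p = 0.00027). The 2 libraries with little adrenal RNA were the highest of their genotype, with 50.53 FPKM in NICD2 replicate 1 and 12.61 FPKM in WT replicate 3, and within the 4 adrenal-containing libraries the difference of Slc38a4 was 1.84 (limma adjusted p = 0.000104).

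Slc38a2 encodes SNAT2, the System A carrier that cells raise when amino acids are short. It was at 87.03, 78.59 and 79.25 FPKM in NICD2 libraries, against 51.71, 55.74 and 55.23 FPKM in WT libraries. Libraries of each genotype lay close together, and the difference of Slc38a2 was 0.58 ± 0.07 on the log2(FPKM + 1) scale (limma adjusted p = 0.00111). By mean FPKM, Slc38a2 ranked 1 among the 58 genes in NICD2 kidneys and 4 in WT kidneys, and Slc38a4 ranked 5 in NICD2 kidneys and 18 in WT kidneys.

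Slc38a1, Slc38a2 and Slc38a4 are neighbours on the minus strand of chromosome 15, with 44.5 kb between the first pair, 295.1 kb between Slc38a2 and Slc38a4, and no other gene of the table between them. Slc38a1 encodes SNAT1, the third System A carrier. It did not pass the test: Slc38a1 had 10.92, 11.34 and 10.93 FPKM in NICD2 libraries and 10.34, 10.86 and 11.44 FPKM in WT libraries, with a difference of 0.02 ± 0.07 (limma adjusted p = 0.873). Whether its difference differs from those of Slc38a2 and Slc38a4 was not tested.

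Slc38a3 encodes SNAT3, the System N glutamine carrier of the basolateral proximal tubule. Slc38a3 had 10.08, 12.94 and 10.37 FPKM in NICD2 libraries and 10.74, 9.49 and 9.23 FPKM in WT libraries, which overlapped (0.16 ± 0.10, limma adjusted p = 0.38). Slc38a6, a member with no settled substrate, had the highest mean of the 58 genes in WT kidneys, at 76.81, 65.91 and 88.78 FPKM in NICD2 libraries and 74.77, 110.20 and 102.77 FPKM in WT libraries. Its libraries were widely spread and overlapped (-0.30 ± 0.15, limma adjusted p = 0.265). The other tested Slc38 genes, Slc38a7, Slc38a9 and Slc38a10, had differences of -0.17 to -0.08 and none passed. SLC38A9 is the lysosomal protein through which arginine is sensed, and Slc38a9 had means of 2.77 ± 0.174 FPKM in NICD2 kidneys and 3.24 ± 0.121 FPKM in WT kidneys (SD, n = 3 each), with no overlap between groups and a limma adjusted p of 0.264.

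Slc1a4 encodes ASCT1, an exchanger of alanine, serine and cysteine. Slc1a4 was at 5.46, 9.80 and 6.90 FPKM in NICD2 libraries, against 2.57, 2.50 and 2.26 FPKM in WT libraries. The lowest NICD2 library was above the highest WT library, the NICD2 libraries were the more widely spread, and the difference was 1.25 ± 0.17 on the log2(FPKM + 1) scale (limma adjusted p = 0.00269). Slc1a5, which encodes the related glutamine carrier ASCT2, was at 20.56, 22.58 and 17.94 FPKM in NICD2 libraries and 23.73, 21.13 and 20.36 FPKM in WT libraries, which overlapped (-0.09 ± 0.09, limma adjusted p = 0.591). Slc1a1 encodes EAAC1, the glutamate and aspartate carrier of the proximal tubule brush border. Slc1a1 had 10.81, 11.87 and 13.06 FPKM in NICD2 libraries and 12.16, 13.52 and 13.37 FPKM in WT libraries, again with overlap (-0.12 ± 0.08, limma adjusted p = 0.415). The remaining tested gene of the family, Slc1a3, encodes the glutamate carrier GLAST and had means of 2.51 ± 0.21 FPKM in NICD2 kidneys and 1.88 ± 0.208 FPKM in WT kidneys (SD, n = 3 each). Its groups did not overlap, but its difference of 0.28 ± 0.10 did not pass (limma adjusted p = 0.123).

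Slc7a2 encodes CAT2, a carrier of arginine, lysine and ornithine that needs no heavy chain. Slc7a2 had 7.01, 7.84 and 7.42 FPKM in NICD2 libraries, against 4.68, 5.21 and 4.97 FPKM in WT libraries. The groups were well separated, with a difference of 0.50 ± 0.08 (limma adjusted p = 0.00559). An opposite-strand noncoding gene overlaps 3253 bases of it in GENCODE vM21, and no source used here says whether the counting used strand. Slc7a1, which encodes the related carrier CAT1, had 8.51, 9.28 and 8.91 FPKM in NICD2 libraries and 7.55, 7.84 and 7.63 FPKM in WT libraries. Its groups did not overlap either, but the difference of 0.19 ± 0.07 did not pass (limma adjusted p = 0.12). Slc7a4, a relative without shown transport, was at 2.57 ± 0.256 FPKM in NICD2 kidneys and 2.63 ± 0.402 FPKM in WT kidneys (SD, n = 3 each).

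Of the 10 light chain genes 7 were tested, of which 0 were higher, 2 were lower and 5 did not pass, or 28.6% called beside 8.79% of all tested genes. Their median difference was -0.33, beside -0.006 over all tested genes, and 6 of the 7 were below 0. Of the light chain genes under the filter, Slc7a15 lay well above WT and Slc7a10 lay below WT, as described below. Slc7a8 encodes LAT2, the basolateral exchanger of large and small neutral amino acids. It was at 34.88, 46.12 and 39.57 FPKM in NICD2 libraries, against 55.31, 60.71 and 52.64 FPKM in WT libraries. All NICD2 libraries were below all WT libraries, and the difference of Slc7a8 was -0.48 ± 0.10 (limma adjusted p = 0.0236). Slc7a7 encodes y+LAT1, the basolateral exporter of arginine and lysine that is mutated in lysinuric protein intolerance in people. Slc7a7 had 10.08, 12.10 and 12.98 FPKM in NICD2 libraries, against 15.92, 16.97 and 15.99 FPKM in WT libraries. The groups were again apart, with a difference of -0.45 ± 0.09 (limma adjusted p = 0.0198). The last 228 bases of Slc7a7 overlap Oxa1l on the opposite strand, a gene at 39.3 ± 0.868 FPKM in NICD2 kidneys and 41.5 ± 1.9 FPKM in WT kidneys (SD, n = 3 each; limma adjusted p = 0.472).

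Slc7a9 encodes b0,+AT, the brush border exchanger of cystine and cationic amino acids that is mutated in cystinuria. It had 12.79, 12.99 and 16.83 FPKM in NICD2 libraries and 18.68, 17.81 and 17.56 FPKM in WT libraries. All NICD2 libraries were lower, NICD2 replicate 3 only slightly, and the difference of -0.33 ± 0.10 did not pass (limma adjusted p = 0.0821). Without NICD2 replicate 3 the difference of Slc7a9 was -0.45 and passed (limma adjusted p = 0.0126). With any other single library left out it did not pass (limma adjusted p of 0.142 to 0.235). Slc7a13 encodes AGT1, the aspartate and cystine carrier of the last proximal tubule segment, and had 5.70, 4.23 and 6.70 FPKM in NICD2 libraries and 6.94, 6.89 and 7.98 FPKM in WT libraries. The gap between the groups was small beside their spread (-0.35 ± 0.14, limma adjusted p = 0.15). Slc7a6, which encodes y+LAT2, had means of 10.7 ± 0.406 FPKM in NICD2 kidneys and 12.2 ± 0.394 FPKM in WT kidneys (SD, n = 3 each), with no overlap between groups and a limma adjusted p of 0.132.

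The tested light chain gene with a difference above 0 was Slc7a5, which encodes LAT1, the exchanger that brings leucine into proliferating cells. Slc7a5 had 9.56, 13.18 and 10.87 FPKM in NICD2 libraries and 10.24, 8.70 and 8.55 FPKM in WT libraries. NICD2 replicate 1 lay below WT replicate 1, so the groups overlapped, and the difference was 0.26 ± 0.12 (limma adjusted p = 0.214). Slc7a12, which in the mouse encodes the light chain relative Asc-2, had 14.30, 11.48 and 12.74 FPKM in NICD2 libraries and 13.89, 13.38 and 13.91 FPKM in WT libraries, with overlap (-0.09 ± 0.08, limma adjusted p = 0.533).

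Neither heavy chain gene passed. Slc3a2 encodes 4F2hc, the partner of Slc7a5 to Slc7a8 and Slc7a11, and was at 62.73, 76.15 and 69.02 FPKM in NICD2 libraries and 90.94, 80.56 and 74.17 FPKM in WT libraries. NICD2 replicate 2 lay above WT replicate 3 (difference -0.24 ± 0.10, limma adjusted p = 0.164). Slc3a1 encodes rBAT, the partner of Slc7a9 and Slc7a13, and had 18.01, 17.92 and 25.24 FPKM in NICD2 libraries and 15.38, 23.17 and 15.51 FPKM in WT libraries. One library of each genotype was high, NICD2 replicate 3 and WT replicate 2, and the difference was 0.18 ± 0.18 (limma adjusted p = 0.582). Slc3a1 shares 1733 bases with Prepl, and Slc7a9 shares 4229 bases with Tdrd12, in each case on the opposite strand.

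**Figure D2:**
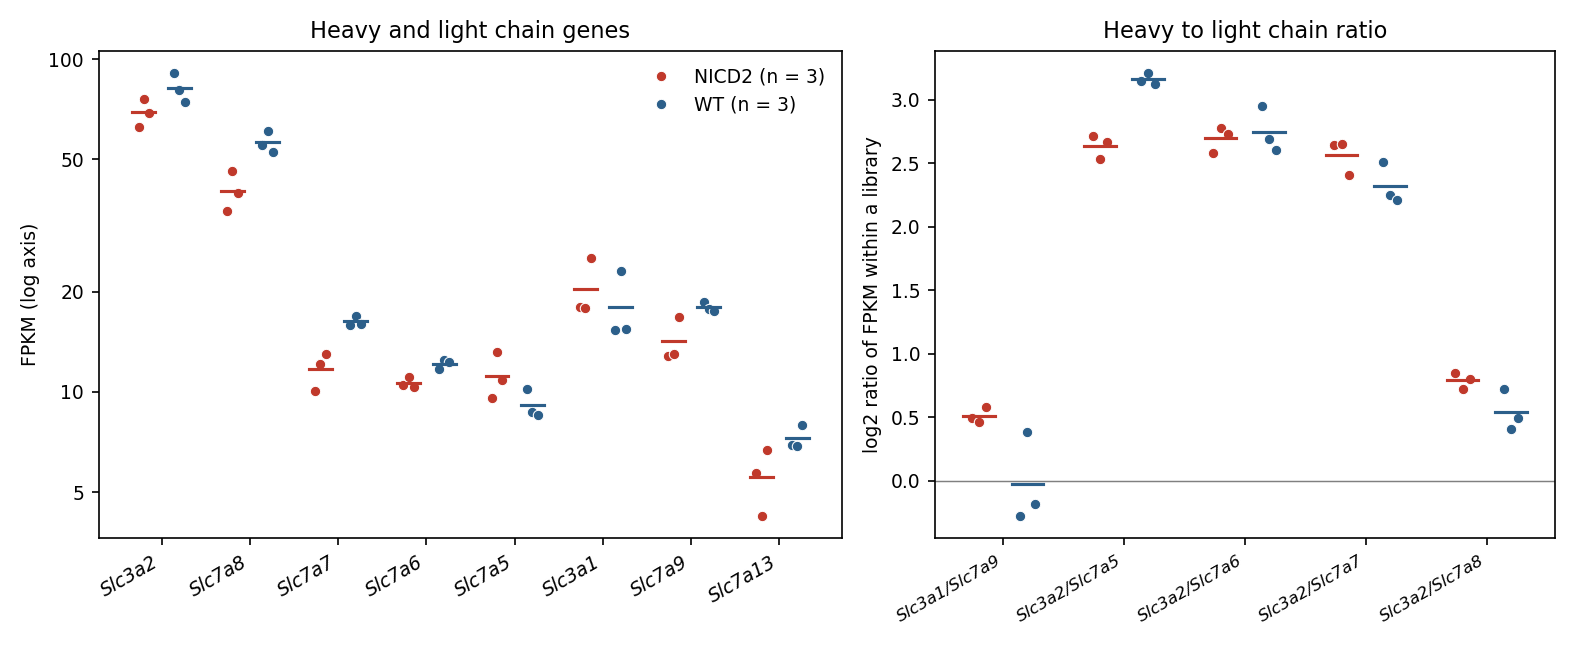
Left, FPKM on a log axis of 2 heavy chain and 6 light chain genes, and right, the log2 ratio of heavy to light chain FPKM within each library, with NICD2 (red) left of WT (blue), 1 point per library and a bar at the group mean (n = 3 each). Slc3a2 over Slc7a5 is lower in all 3 NICD2 libraries than in any WT library, while Slc3a1 over Slc7a9 and Slc3a2 over Slc7a8 are higher in NICD2 or level with the highest WT library.

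Since FPKM is per length, heavy and light chain levels can be set against each other within a library. The ratio of Slc3a2 to Slc7a5 was 6.56, 5.78 and 6.35 in NICD2 libraries and 8.88, 9.26 and 8.67 in WT libraries. Every NICD2 ratio was below every WT ratio, a difference of -0.52 in log2 ratio with an exact permutation p of 0.1 (two-sided), the smallest that 3 libraries against 3 allow, and an adjusted exact p of 0.2 over the 6 ratios computed. The ratio of Slc3a1 to Slc7a9 was 1.41, 1.38 and 1.5 in NICD2 libraries and 0.823, 1.30 and 0.883 in WT libraries, a log2 difference of 0.54 (exact permutation p = 0.1, adjusted 0.2). Here too the groups did not overlap, with WT replicate 2 close to the NICD2 libraries. The ratios of Slc3a2 to Slc7a6, Slc7a7, Slc7a8 and Slc7a11 had log2 differences of -0.05, 0.24, 0.25 and -0.72, with exact permutation p of 0.8, 0.2, 0.1 and 0.2. The design cannot pass the threshold for any of the 6 ratios.

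Slc43a2 encodes LAT4, a carrier through which branched-chain amino acids and phenylalanine leave the cell across the basolateral membrane. It was at 5.61, 7.28 and 7.60 FPKM in NICD2 libraries, against 9.20, 10.46 and 9.54 FPKM in WT libraries. All NICD2 libraries were below all WT libraries, and the difference of Slc43a2 was -0.46 ± 0.11 (limma adjusted p = 0.0346). Slc43a1, which encodes the related LAT3, had means of 2.96 ± 0.38 FPKM in NICD2 kidneys and 3.37 ± 0.261 FPKM in WT kidneys (SD, n = 3 each; limma adjusted p = 0.426). Slc43a3, whose protein carries purine nucleobases rather than amino acids, had 24.29, 22.40 and 19.35 FPKM in NICD2 libraries and 25.07, 21.79 and 22.75 FPKM in WT libraries, which overlapped (-0.08 ± 0.09, limma adjusted p = 0.661).

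Among Slc6 genes, 8 were tested, 0 were higher, and Slc6a8 and Slc6a17 were lower, or 25% called beside 8.79% of all tested genes. Slc6a8 had 25.59, 28.31 and 26.59 FPKM in NICD2 libraries, against 31.17, 32.69 and 32.07 FPKM in WT libraries. The groups were apart by a small step, a difference of -0.25 ± 0.06 (limma adjusted p = 0.0449). Slc6a17 had 2.74, 3.21 and 2.89 FPKM in NICD2 libraries, against 4.32, 4.34 and 3.71 FPKM in WT libraries. Its groups were also apart, by -0.38 ± 0.09 (limma adjusted p = 0.0428).

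The Slc6 carriers of the brush border did not pass. Slc6a19 encodes B0AT1, the main apical carrier of neutral amino acids, mutated in Hartnup disorder. Slc6a19 had 2.64, 2.70 and 3.30 FPKM in NICD2 libraries and 3.39, 3.50 and 3.45 FPKM in WT libraries. The WT libraries were tightly grouped just above the highest NICD2 library, and the difference was -0.20 ± 0.10 (limma adjusted p = 0.234). Slc6a18, its neighbour 1.7 kb away on chromosome 13, encodes B0AT3, an apical carrier of glycine and alanine, and was at 38.88, 26.49 and 35.95 FPKM in NICD2 libraries and 30.62, 32.11 and 28.93 FPKM in WT libraries. NICD2 libraries lay on both sides of the WT libraries (0.12 ± 0.13, limma adjusted p = 0.6). Slc6a13, which encodes the GABA and taurine carrier GAT2, had 16.39, 14.65 and 13.65 FPKM in NICD2 libraries and 16.85, 13.68 and 14.11 FPKM in WT libraries, which overlapped (0.00 ± 0.10, limma adjusted p = 0.987). Slc6a15, which encodes the neutral amino acid carrier B0AT2, had means of 4.61 ± 0.675 FPKM in NICD2 kidneys and 3.78 ± 0.118 FPKM in WT kidneys (SD, n = 3 each; limma adjusted p = 0.223). The proline carrier genes Slc6a20a and Slc6a20b lie outside the symbol rule, and Slc6a20b had means of 6.54 ± 0.457 FPKM in NICD2 kidneys and 7.76 ± 0.705 FPKM in WT kidneys (limma adjusted p = 0.164), while Slc6a20a was under the filter with means of 0.937 and 0.960 FPKM in NICD2 and WT kidneys.

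None of the 3 tested Slc36 genes passed. Slc36a1, the lysosomal and apical PAT1 gene, had 6.43, 5.68 and 6.27 FPKM in NICD2 libraries and 6.50, 6.67 and 5.98 FPKM in WT libraries. Slc36a4 had 8.66, 8.42 and 9.48 FPKM in NICD2 libraries and 9.32, 10.18 and 10.25 FPKM in WT libraries. Slc36a2, the proline and glycine carrier gene of the early proximal tubule, had 0.87, 0.73 and 1.64 FPKM in NICD2 libraries and 1.98, 1.59 and 1.14 FPKM in WT libraries. The groups overlapped for all 3 of these genes, with differences of -0.05 ± 0.08, -0.15 ± 0.07 and -0.32 ± 0.19 and limma adjusted p of 0.738, 0.259 and 0.336.

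**Figure D3:**
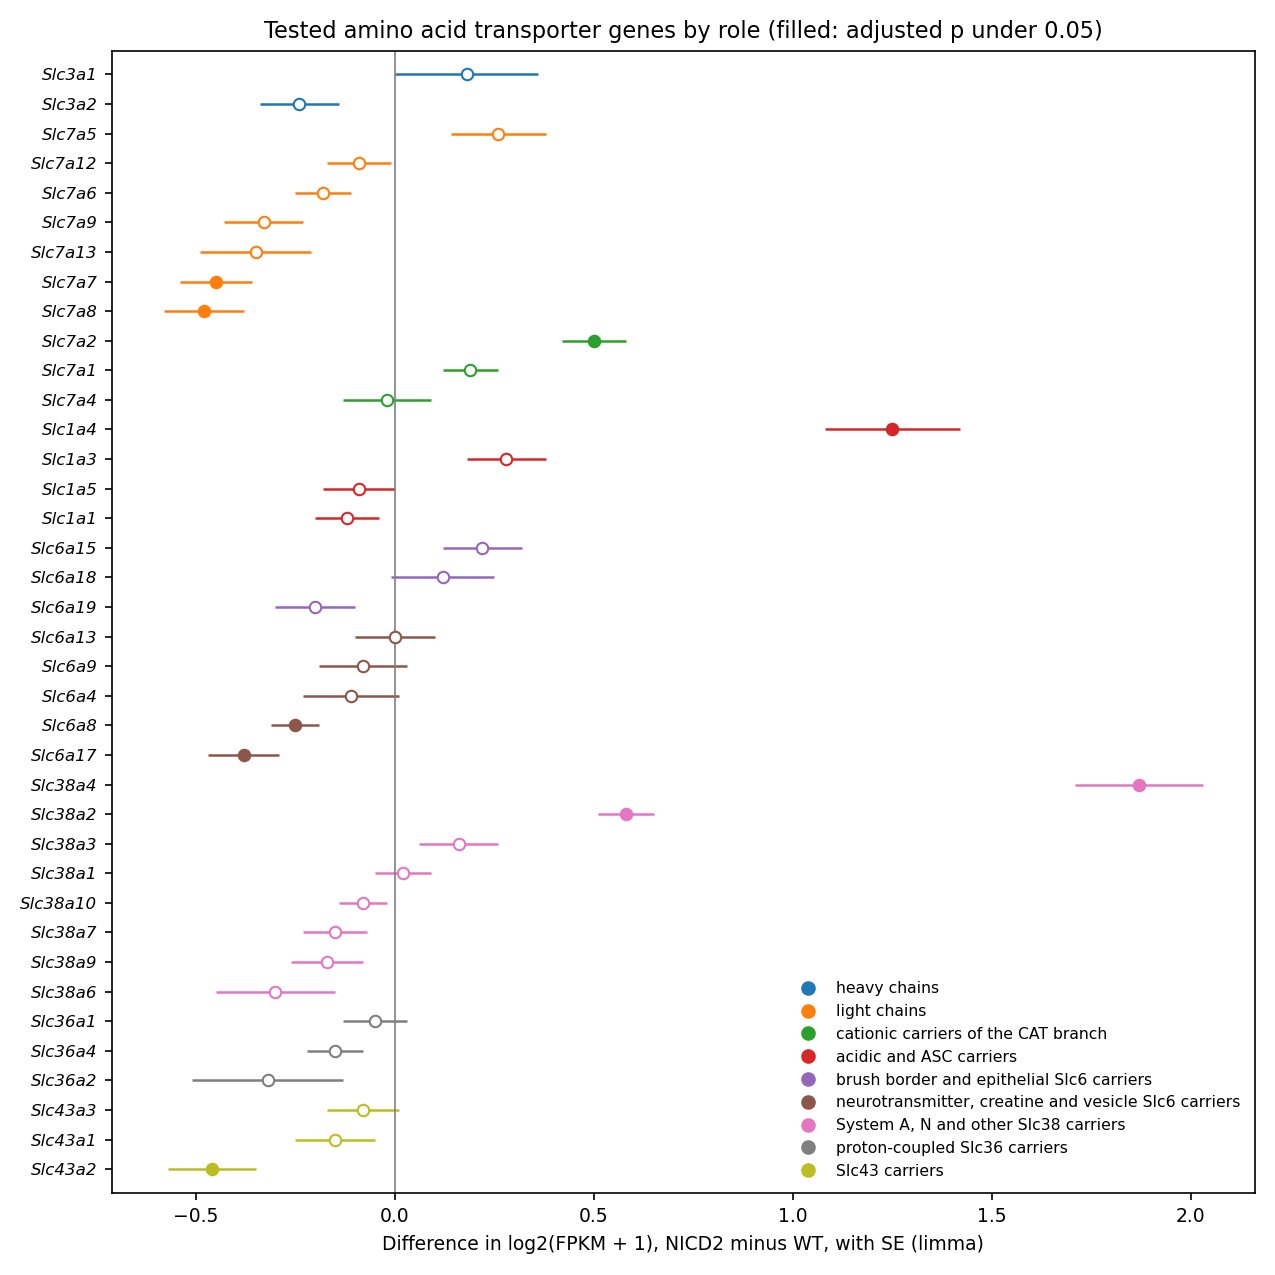
Difference in log2(FPKM + 1), NICD2 minus WT, for the 38 tested transporter genes grouped by role, with bars for the SE from limma and filled points for an adjusted p under 0.05. The 4 filled points above 0 reach from 0.50 to 1.87, while the 5 below 0 lie between -0.48 and -0.25, and 6 of 7 light chain genes are left of 0.

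The 2 directions differed in how firmly the calls held. Slc38a4, Slc38a2, Slc1a4 and Slc7a2 passed with each of the 6 libraries left out in turn, with the highest limma adjusted p at 0.00266 for Slc38a4, 0.00779 for Slc38a2, 0.0172 for Slc1a4 and 0.0284 for Slc7a2. None of the 5 lower genes did. Slc7a7 no longer passed without WT replicate 2 (limma adjusted p = 0.0855) or WT replicate 3 (0.0576). Slc7a8 no longer passed without NICD2 replicate 1 (0.0629), NICD2 replicate 3 (0.0582), WT replicate 1 (0.053) or WT replicate 2 (0.0933). Slc43a2 passed only without NICD2 replicate 3 (0.0323), Slc6a17 passed only without WT replicate 3 (0.0494), and Slc6a8 passed in none of the 6, with limma adjusted p up to 0.13 for Slc43a2, 0.153 for Slc6a17 and 0.167 for Slc6a8. All 5 kept a difference below 0 in every such fit. Within the 4 adrenal-containing libraries the 4 higher genes passed, with adjusted p of 0.0347 or less, and 0 of the 5 lower genes did, with differences of -0.43 to -0.21 and limma adjusted p of 0.0836 to 0.277. With a term for adrenal content over all 6 libraries, the 4 higher genes and 4 of the 5 lower ones passed, with limma adjusted p of 0.0134 for Slc7a7, 0.0115 for Slc7a8, 0.0223 for Slc43a2, 0.034 for Slc6a17 and 0.0579 for Slc6a8.

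The lower light chain and Slc43a2 levels stood beside lower levels of several proximal tubule genes and of markers of several other cell types. Of 15 proximal tubule markers 0 were higher and 4 were lower (Slc34a1, Kap, Ttc36 and Aqp1), or 26.7% beside 8.79% of all tested genes, with a median difference of -0.11. Gatm, Fbp1, Slc22a6 and Pck1 had differences above 0 that did not pass. The list's summed FPKM ranged over 1630 to 1910 in NICD2 libraries and 2250 to 2410 in WT libraries, a sum in which Kap weighs most, with means of 709 FPKM in NICD2 kidneys and 1090 FPKM in WT kidneys. No marker of the list was near 0. Slc34a1, the sodium phosphate carrier gene, was at 216.15, 282.27 and 237.97 FPKM in NICD2 libraries, against 378.43, 391.76 and 365.26 FPKM in WT libraries (limma adjusted p = 0.00579). Cubn and Lrp2, the endocytic receptor genes of the same cells, did not pass, with adjusted p of 0.709 and 0.623. Of markers of other cells, podocyte markers were lower in 5 of 6, intercalated cell markers in 6 of 7 and principal cell markers in 5 of 7, with 1 principal cell marker higher. Distal convoluted tubule markers were lower in 2 of 4, endothelium in 2 of 5, stroma in 1 of 5 and nephron progenitor in 1 of 4 tested, with 0 higher. Median differences of these lists were -0.32, -0.27, -0.24 and -0.42, beside -0.11 for the proximal tubule list. Those of the podocyte, intercalated cell and principal cell lists were -0.49, -2.46 and -0.87. Thick limb markers went both ways, with Umod and Kcnj1 higher, 0 of 5 lower and a median difference of -0.16. Slc12a1, Cldn16 and Cldn10 had differences of -0.29, -0.27 and -0.16 that did not pass. The list's summed FPKM was 497 to 624 in NICD2 libraries and 335 to 375 in WT libraries. In that sum Umod had means of 337 FPKM in NICD2 kidneys and 114 FPKM in WT kidneys. Slc12a1 had means of 109 FPKM in NICD2 kidneys and 133 FPKM in WT kidneys. Intercalated cell markers had summed FPKM of 40.5 to 48.0 in NICD2 libraries and 143 to 149 in WT libraries. The part of these cell types in the transporter differences was not tested.

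Of 5 genes read here whose proteins help carriers reach or stay in the membrane, 1 was higher and 0 were lower, or 20% beside 8.79% of all genes. Slc9a3r1, the brush border scaffold NHERF1, had 82.77, 95 and 77.35 FPKM in NICD2 libraries, against 64.99, 61.31 and 58.45 FPKM in WT libraries (0.46 ± 0.08, limma adjusted p = 0.0129). All NICD2 libraries were above all WT libraries. Tmem27, which encodes collectrin, the kidney partner of B0AT1 and B0AT3, had 120.92, 90.99 and 117.01 FPKM in NICD2 libraries and 106.09, 129.77 and 122.44 FPKM in WT libraries, which overlapped (limma adjusted p = 0.551). The other 3 genes read, Ace, Pdzk1 and Bsg, were lower in every NICD2 library than in any WT library. Their differences of -0.28, -0.22 and -0.09 did not pass (limma adjusted p of 0.12, 0.0757 and 0.403). Without WT replicate 1, 1 of the 5 was called lower. Without WT replicate 2 or without WT replicate 3, fits that called 603 and 753 of all genes, 0 of the 5 were higher.

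Of 12 tested carriers of amino acids and peptides in other families, 0 were higher and 1 was lower, or 8.33% beside 8.79% of all genes. It was Ctns, the lysosomal cystine exporter mutated in cystinosis, with 7.87, 7.53 and 6.88 FPKM in NICD2 libraries, against 10.56, 9.29 and 10.47 FPKM in WT libraries (-0.40 ± 0.08, limma adjusted p = 0.0189). The groups were apart, and the call was lost without NICD2 replicate 2, NICD2 replicate 3 or WT replicate 3.

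Because many of the transporter genes, called or not, are known ATF4 targets, 26 genes of the amino acid response were also read. Of the 24 tested, 3 were higher and 0 lower, or 12.5% beside 8.79% of all genes. Asns, asparagine synthetase, had 8.0, 7.35 and 7.93 FPKM in NICD2 libraries, against 4.93, 4.70 and 4.81 FPKM in WT libraries (0.59 ± 0.07, limma adjusted p = 0.00166). Ddit4, an inhibitor of mTORC1, had 34.12, 29.26 and 26.09 FPKM in NICD2 libraries, against 14.91, 14.15 and 11.75 FPKM in WT libraries (1.08 ± 0.11, limma adjusted p = 0.000801). Psat1, of serine synthesis, had 27.07, 23.20 and 22.66 FPKM in NICD2 libraries, against 18.19, 16.14 and 15.86 FPKM in WT libraries (0.51 ± 0.09, limma adjusted p = 0.00862). These 3 genes were separated between genotypes. So were 4 that did not pass, Pck2 and Gars with differences of 0.38 and 0.18 and Psph and Nupr1 with differences of -0.26 and -0.53 (limma adjusted p of 0.0556, 0.107, 0.0729 and 0.0801). Atf4 itself was at 90.9 ± 13.3 FPKM in NICD2 kidneys and 94.3 ± 10.8 FPKM in WT kidneys (SD, n = 3 each; limma adjusted p = 0.812), Ddit3 had an adjusted p of 0.348, and Trib3 and Chac1 stayed under 1 FPKM. ATF4 is known to be controlled largely at translation.

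Below the filter lay 20 transporter genes, of which 16 were under 1 FPKM in every library. They include the neuronal carriers of GABA, glycine and dopamine. Slc38a5 and Slc7a10 were lower in NICD2 without overlap between groups. Their means were 0.327 and 0.22 FPKM in NICD2 kidneys and 0.687 and 0.427 FPKM in WT kidneys. With no filter neither passed (limma adjusted p of 0.0923 and 0.113). In 2 other genes, Slc7a15 and Slc6a14, the groups were far apart with NICD2 higher. These genes were all picked out after their values were seen. Slc7a15, a light chain family gene active in the mouse and known for aromatic amino acids, had 1.16, 1.02 and 0.83 FPKM in NICD2 libraries, or an estimated 48, 42 and 35 fragments, against 0.12, 0.12 and 0.10 FPKM or 5, 5 and 4 fragments in WT libraries. It missed the filter since only 2 libraries reached 1 FPKM. Mean FPKM of Slc7a15 was 8.85 times that of WT, and with no filter its adjusted p was 0.00179 (limma), where 4.55% of 19658 genes passed and 2.63% were higher. GENCODE vM21 lists the antisense gene 5033421B08Rik over 34201 bases of Slc7a15, and without strand their reads cannot be told apart.

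Slc6a14 on chromosome X encodes ATB0,+, a broad apical carrier of neutral and cationic amino acids. It had 0.16, 0.22 and 0.20 FPKM in NICD2 libraries, or an estimated 9, 12 and 11 fragments, against 0.00, 0.02 and 0.00 FPKM or 0, 1 and 0 fragments in WT libraries. With no filter its adjusted p was 0.0159 (limma), on levels that rest on very few fragments. Slc7a11, the cystine and glutamate exchanger gene, had 0.41, 0.33 and 0.39 FPKM in NICD2 libraries and 0.21, 0.27 and 0.34 FPKM in WT libraries, which overlapped.

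**Figure D4:**
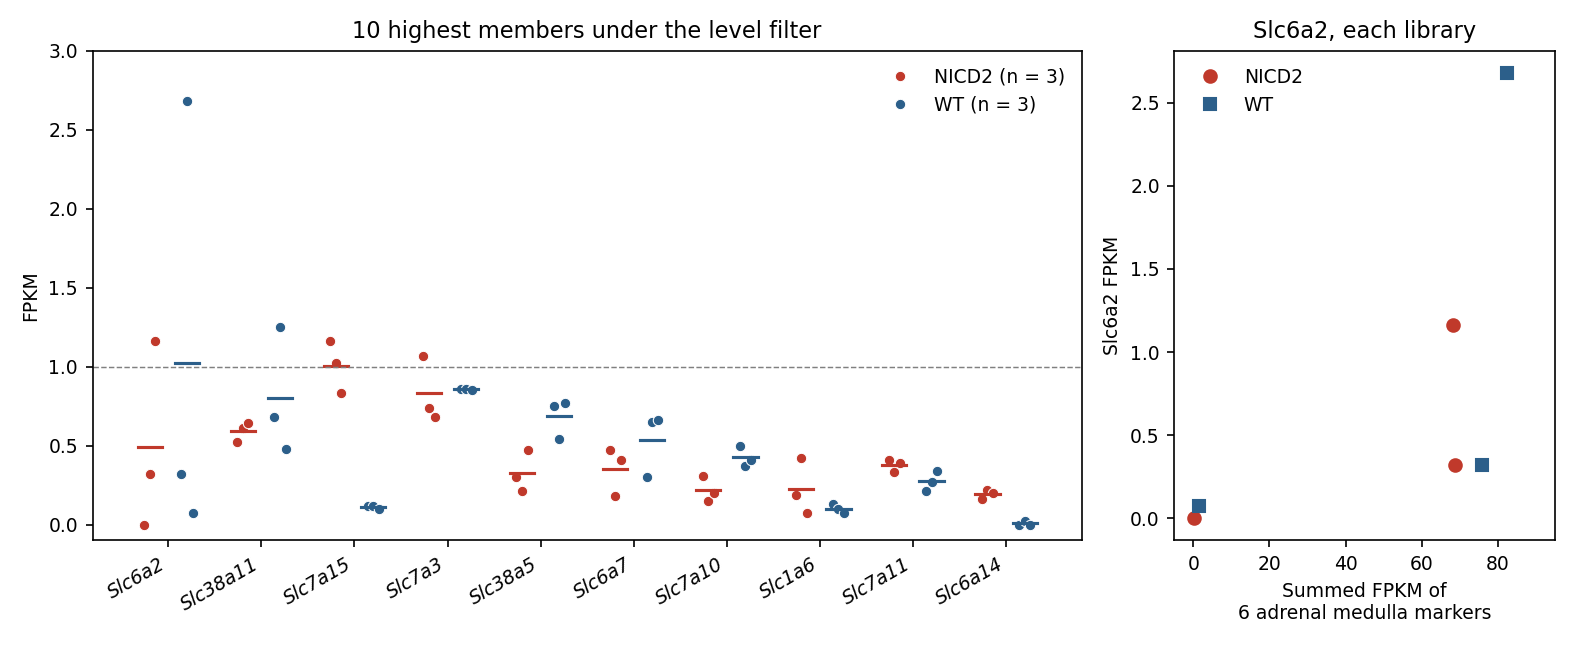
Left, FPKM of the 10 transporter genes under the level filter that reached the highest values in any library, with NICD2 (red) left of WT (blue), 1 point per library, a bar at the group mean and a dashed line at 1 FPKM. Right, FPKM of Slc6a2 against the summed FPKM of 6 adrenal medulla markers in each library, where both libraries with almost no marker RNA have Slc6a2 at 0.00 and 0.07 FPKM.

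Slc6a2, the noradrenaline carrier gene of sympathetic and chromaffin cells, was the most variable of the low genes, at 0.00, 0.32 and 1.16 FPKM in NICD2 libraries and 0.32, 2.68 and 0.07 FPKM in WT libraries. Its lowest values fell in NICD2 replicate 1 and WT replicate 3. Those 2 libraries had summed FPKM of 6 adrenal medulla and sympathetic markers of 0.2 and 1.38, beside 68.3 to 82.4 in the other 4. The part of adrenal tissue in the Slc6a2 values was not tested further.

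The authors' deposited table, which compares the genotypes as groups, gave q-values for 57 of the 58 genes. At q under 0.05 it holds 15 transporter genes higher and 23 lower in NICD2, or 66.7%, beside 48.9% of 18724 genes with a q-value. By their heading the q-values come from DEGseq, and a q under 0.05 there did not require the groups to be apart. Slc38a6, whose groups overlapped, has a DEGseq q of 2.05e-33, beside a limma adjusted p of 0.265.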

How the data were processed

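Per the labels' protocols, Trizol was used on flash-frozen kidneys and 1 ug of RNA entered an Illumina TruSeq preparation. The authors' deposited table gives FPKM per gene and library. Bowtie 0.12.2 and build mm8 are named in the submitters' processing notes, but the coordinates fit GRCm38, where 98.8% of 21088 matched genes overlapped their RefSeq position. The program behind the FPKM values, its use of strand and its treatment of reads with several matches are not stated. The authors' deposited group comparison holds log2 ratios and q-values; its 27 columns comparing single libraries were not used.

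Of 23669 rows, 19659 had FPKM values. Testing was limited to genes reaching 1 FPKM in 3 or more libraries. It used limma 3.58.1 in R 4.3.3 on log2(FPKM + 1), with trended variance, all 6 libraries and no covariate, two-sided, with Benjamini-Hochberg adjustment over all 13765 genes and a threshold of 0.05; the code was tested on simulated data. A difference on this scale understates the change of low genes. Ratios of heavy to light chains were compared by exact permutation tests over libraries with Python 3.11.15 and scipy 1.17.1. Counts were not used here, and depth was estimated from low values: 76.1% to 79.6% of them lay within 0.15 fragments of a whole number, against 30.0% by chance, which was too few to recover counts for a count test. Fragment numbers given are such estimates. Same-numbered libraries showed no sign of being paired. Correlations of their deviations from the group mean were -0.033, 0.059 and -0.045, beside -0.253 to 0.246 for libraries of unlike number. With 3 libraries a group, these values cannot settle whether libraries were paired.

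The symbol rule uses no measured value, but it and the other lists were chosen with earlier results of these data known. Named with values in every library were genes past the threshold, well-studied kidney carriers and the 2 highest genes of each family. One gene of the partner list is not reported here. Other genes named were chosen after their values were seen. Promoter windows are RefSeq's, build GRCm38.p6. Alternatives tried were the pseudocount, the filter, scaling, the trend, the replicate block and leaving out each library; fits within, or with a term for, adrenal-containing libraries (over 10 FPKM summed over adrenal cortex markers) were added after seeing the data.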

Additional observations from a re-analysis of the deposited data

How the results depend on the processing

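The 9 called transporter genes kept their direction under every alternative, and the 4 higher ones stayed past the threshold in all of them in which they were tested. Without each library in turn, the number of genes called ranged from 603 to 955 (1210 with all), transporter genes from 4 to 7, partner genes from 0 to 2, other carriers from 0 to 1 and amino acid response genes from 3 to 4. Within the adrenal-containing libraries these counts were 469, 4, 0 and 0, with 2 for the amino acid response; the fit has 2 libraries a group, and the part of smaller numbers was not tested. With a term for adrenal content, 8 transporter genes (4 higher, 4 lower) were called. Same-numbered libraries showed no sign of being paired. With the replicate block 1055 genes and 7 transporter genes (4 higher, 3 lower) were called. That fit also called 5 amino acid response genes and 2 partner genes (1 higher and 1 lower, against 1 called with no block). With no filter, 894 of 19658 genes and 7 transporter genes (6 higher, 1 lower) were called, with Slc7a15 and Slc6a14 among those tested; the cause of the lost calls was not tested.

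Without each library in turn, log2 ratio differences ranged from 0.41 to 0.74 for Slc3a1 over Slc7a9, -0.56 to -0.47 for Slc3a2 over Slc7a5, -0.12 to 0.06 over Slc7a6, 0.19 to 0.34 over Slc7a7, 0.18 to 0.34 over Slc7a8 and -0.96 to -0.47 over Slc7a11. The sign for Slc7a6 turned to 0.01 without NICD2 replicate 1 and 0.06 without WT replicate 1. Signs of uncalled genes near 0 also turned: Slc6a13 was -0.00438 under upper-quartile scaling, -0.10 within adrenal-containing libraries, -0.06 without NICD2 replicate 1, -0.05 without WT replicate 2 and -0.03 without WT replicate 3 (-0.06 to 0.09 over all libraries left out); Slc6a18 was -0.02 within adrenal-containing libraries; Slc38a1 was -0.01 without WT replicate 1; Slc43a3 was 0.01 without NICD2 replicate 3 (-0.15 to 0.01 over all libraries left out). The cause was not tested. Genes under 1 FPKM rest on few fragments, and differences there are not detectable unless large.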
